A study of Mus musculus with 4 samples.

Results

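The genes described here encode the subunits of the mitochondrial respiratory chain and of the ATP synthase, together with cytochrome c and a few assembly factors whose symbols begin in the same way. They were taken as every gene whose annotated symbol began with Atp5, Uqcr, Nduf, one of Cox4 to Cox8, or Sdh followed by a, b, c or d, with Cyc1 and Cycs added. The rule found 89 genes of 12393 on the array, measured by 164 probe sets of 22626, and each gene is given by its probe set with the highest mean over the 4 arrays. Of the 89 genes, 33 belong to complex I, 4 to complex II, 9 to complex III, 17 to complex IV and 17 to the ATP synthase (complex V), 1 is the electron carrier cytochrome c, and 8 are assembly factors. Livers of male mice aged 12 to 20 weeks were compared on 4 Affymetrix MOE430A arrays, each hybridised with 1 pool of RNA from 1 group of mice. The groups were PPARα-null mice given Wy14643, PPARα-null mice on control chow, wild-type mice given Wy14643 and wild-type mice on control chow. Wy14643, a synthetic agonist of the nuclear receptor PPARα, made up 0.1% of the food for 5 days, with 5 mice per group by the study's methods. The labels give the strain as 129S4/SvJae for PPARα-null and 129S1/SvImJ for wild-type, so the deletion cannot be told apart from any difference between these strains.

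The respiratory chain passes electrons from NADH (through complex I) and from succinate (through complex II) to coenzyme Q, on to complex III, to cytochrome c and to complex IV, which reduces oxygen. Complexes I, III and IV pump protons across the inner mitochondrial membrane, and the ATP synthase uses their return to make ATP. Most subunits are encoded in the nucleus and imported, and several subunits of complex IV exist as a widely expressed form and a form typical of muscle, heart, lung or testis. In liver the chain takes up the electrons released by fatty acid oxidation, a pathway whose enzymes are well known targets of PPARα.

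Ppara, the deleted gene, gave an intensity of 428 and 326 in PPARα-null liver on Wy14643 and control chow, and of 1250.1 and 847 in wild-type liver on Wy14643 and control chow. The PPARα-null arrays thus still held signal on this probe set, and its position relative to the disrupted part of the gene was not examined. An intensity counted as above background when it exceeded 13.4, the 90th percentile of 90 probe sets for genes not expressed in liver. Between 52.0% and 52.8% of all probe sets passed it on each array. The hepatocyte markers on the array were above background on all 4 arrays, 7 of 7, but 3 of them were past 1.5-fold lower on Wy14643 in wild-type liver: Cyp7a1 (12.5-fold), Tat (2.93-fold) and Cps1 (2.12-fold), with a median log2 ratio of -0.54 over the 7. Kupffer cell markers were lower on Wy14643 in both genotypes, 7 of 7 measured in PPARα-null (4.51% of all genes were lower) and 6 of 7 in wild-type liver (16.2% of all genes), with a summed intensity of 646, 1249, 417 and 1041 in PPARα-null on Wy14643, PPARα-null on control, wild-type on Wy14643 and wild-type on control. Stellate cell markers summed to 2009, 1565, 755 and 1415 in the same order, of which Dcn alone made up 1577, 1304, 585 and 1182. Neutrophil markers summed to 250, 57.7, 51.0 and 51.5, and 2 of the 5 were below background on all 4 arrays. The other 3 were 1.5-fold higher on Wy14643 in PPARα-null liver (2.33% of all genes were), S100a8 and S100a9 foremost. The third, Ngp, had 17.7 in PPARα-null liver on Wy14643, close to background. Of the 4 adipocyte markers, Cidec had 9.81 and 10.3 in PPARα-null and 293 and 9.49 in wild-type liver on Wy14643 and control, and the other 3, Adipoq among them, were below background on all 4 arrays. Those of brown adipocytes, cells rich in mitochondria, summed to 79.2, 84.8, 585.4 and 108.2, with Ucp1, the defining gene, at or below background on all 4 arrays and Elovl3, which liver also expresses, making up 498 of the 585.4. The part of these cell types in the results that follow was not tested. With 1 array per group no difference has a replicate check, and no p-value can be given. A ratio was called higher or lower at 1.5-fold, the limit that the study applied to its unreplicated arrays, and the share of all genes called in the same way is given as the background of each comparison.

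In wild-type liver the respiratory chain genes were shifted upwards on Wy14643 as a group, by a modest amount. Of the 83 genes above background on at least 1 wild-type array, 25 were at least 1.5-fold higher on Wy14643, where 15.2% of all genes were, and 0 were 1.5-fold lower, where 16.2% of all genes were. The ratio of Wy14643 over control was above 0 on the log2 scale for 71 of the 83 (85.5%), against 51.4% of all genes, and its median was 0.42, against 0.02 over all genes. In a bulk liver extract, more RNA per cell and a larger share of cells that carry the RNA cannot be told apart. The same ratio in PPARα-null liver had a median of -0.04 over 82 genes, with 0 higher (2.33% of all genes) and 1 lower (4.51% of all genes). The single lower gene was Ndufaf1, an assembly factor of complex I, with 236 and 362 on Wy14643 and control in PPARα-null liver and 241 and 314 on Wy14643 and control in wild-type liver. It was thus lower on Wy14643 in both genotypes, by a log2 ratio of -0.61 in PPARα-null and -0.38 in wild-type.

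**Figure D1:**
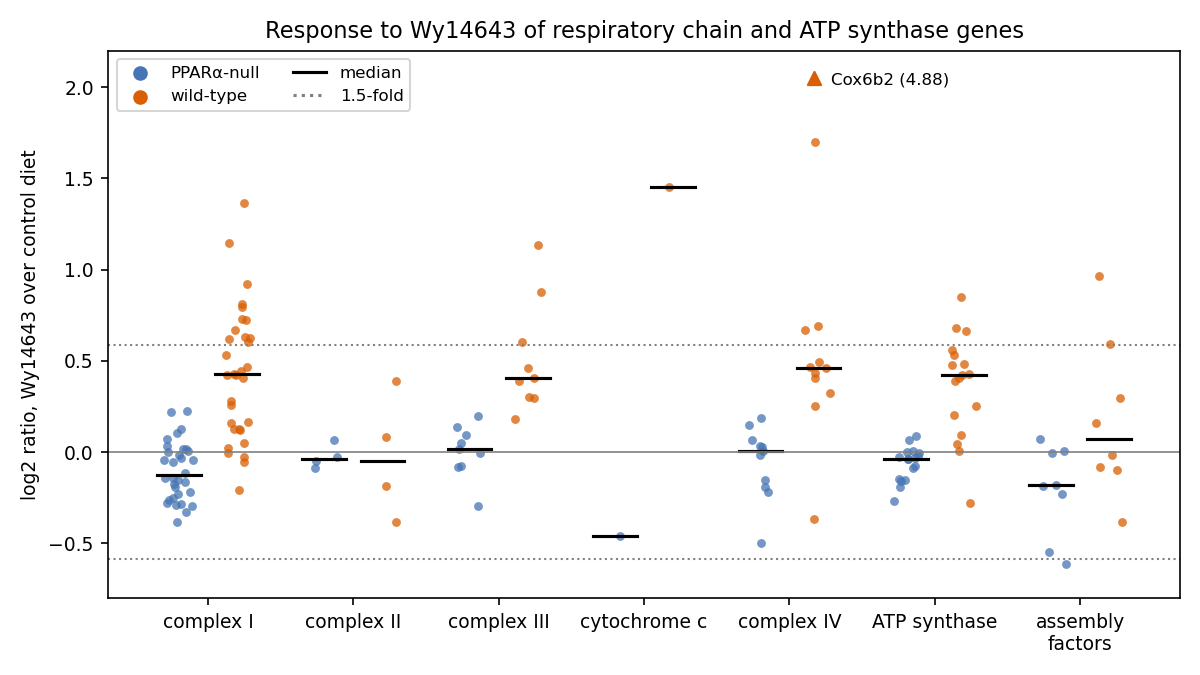
Log2 ratio of Wy14643 over control for each gene above background (points), by complex, in PPARα-null liver (left) and wild-type liver (right), with the median as a bar and 1.5-fold as dotted lines. The wild-type medians of complexes I, III, IV and the ATP synthase lie between 0.40 and 0.46, that of complex II at -0.05, and the point for Cox6b2 (4.88) is drawn at the upper edge.

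The shift was of like size in complexes I, III, IV and V, and complex II had lower ratios, differences that have no test here. In wild-type liver on Wy14643, the median log2 ratio was 0.43 for complex I (12 of 32 measured genes 1.5-fold higher), 0.40 for complex III (3 of 9), 0.46 for complex IV (4 of 12) and 0.42 for the ATP synthase (3 of 17). Complex II, the succinate dehydrogenase, had a median of -0.05 with 0 of 4 past 1.5-fold. The 8 assembly factors had a median of 0.07 with 2 past it. Over all genes 15.2% were 1.5-fold higher, and the 3 of 17 in the ATP synthase lay near that share. In PPARα-null liver the medians were -0.13 for complex I, -0.04 for complex II, 0.02 for complex III, 0.00 for complex IV and -0.04 for the ATP synthase. Subtracting the wild-type from the PPARα-null log2 ratio gave a value below 0 for 78 of 84 genes (92.9%), with a median of -0.44, against 50.4% and a median of -0.0036 over all genes. For complex II the same difference had a median of 0.06, with 2 of 4 genes below 0.

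These genes give bright signals, and bright genes behaved differently from the rest of the array. Of the 89 genes, 68 had a mean intensity of at least 1000, a level chosen after the values were seen. In wild-type liver on Wy14643, 17 of these 68 were 1.5-fold higher, against 17.8% of the 1025 genes as bright as that, and 0 were lower, against 25% of them. Their median log2 ratio was 0.41 and 60 were above 0, while the bright genes as a whole had a median of -0.02 with 48.6% above 0. The difference from genes of like brightness thus lay more in the absence of lower genes and in the median than in the number past 1.5-fold. Among the 80 genes above background on all 4 arrays, the log2 ratio was nearly unrelated to the mean intensity in PPARα-null liver (Spearman -0.19, Pearson -0.18, across genes, which are not independent). The dimmer 40 had a median of 0.42 with 13 genes higher, and the brighter 40 a median of 0.41 with 10.

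**Figure D2:**
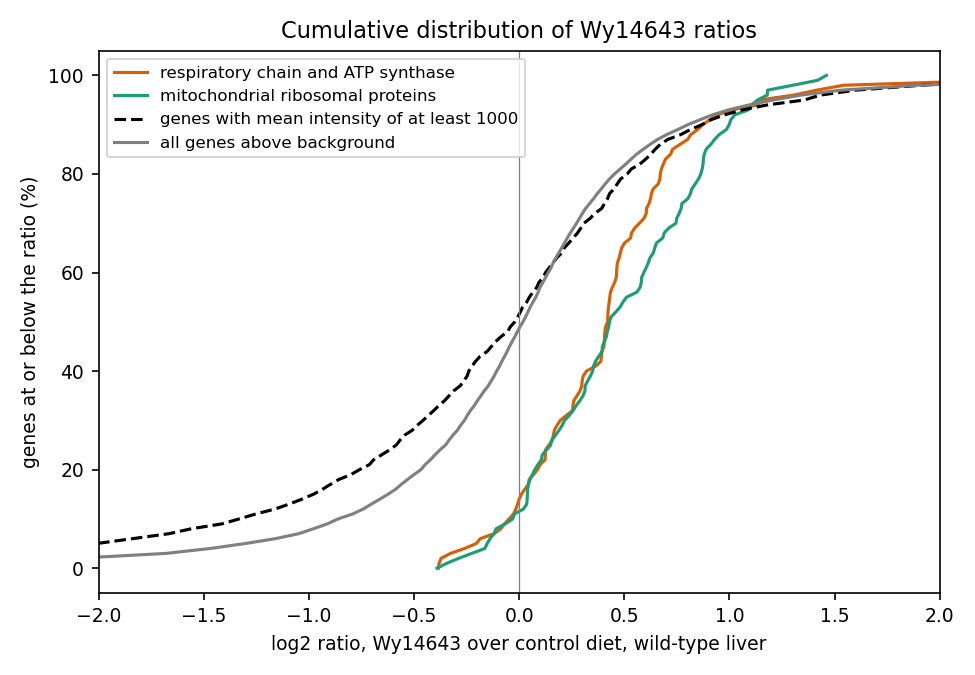
Cumulative distribution of the log2 ratio of Wy14643 over control in wild-type liver, as the percentage of genes (vertical axis) at or below each ratio (horizontal axis), for respiratory chain and ATP synthase genes, mitochondrial ribosomal proteins, genes with a mean intensity of at least 1000 and all genes above background. The curves of the first pair have medians of 0.42 and 0.43 and lie to the right of the others (medians -0.02 and 0.02) at the lower and middle percentiles, part from each other above the median (75th percentile 0.62 and 0.80), and no longer lie apart from the others at the upper end.

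By far the largest ratio belonged to Cox6b2, a complex IV subunit known as the form of Cox6b of the testis. Its intensity was 7.76 and 6.71 in PPARα-null liver on Wy14643 and control, both below background, and 1334 and 45.2 in wild-type liver on Wy14643 and control. It was therefore 29.5-fold higher on Wy14643 in wild-type liver, and it was at least 99.8-fold lower in PPARα-null than in wild-type liver on Wy14643 and at least 3.38-fold lower on control chow, with the PPARα-null signal set to the background. The array holds 1 probe set for Cox6b2, so no further probe set bears on it. Germ cell markers of the testis were low on each array: 4 of 7 were below background on all arrays, and the summed intensity of the 7 was 84.1 and 68.4 in PPARα-null liver on Wy14643 and control and 79.9 and 75.1 in wild-type liver on Wy14643 and control. Kmt5c, a histone methyltransferase gene next to Cox6b2 in the RefSeq annotation, had 15.6 and 17.8 in PPARα-null and 30.7 and 18.8 in wild-type liver on Wy14643 and control, a wild-type log2 ratio of 0.71. Il11, another gene near Cox6b2, was below background on all 4 arrays. Cox6b1, the widely expressed partner of Cox6b2, had 6415 and 6278 in PPARα-null and 8318 and 6044 in wild-type liver on Wy14643 and control, a wild-type log2 ratio of 0.46.

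The next 3 ratios in size were those of Cox8a, Cycs and Ndufb3. Cox8a, the widely expressed form of the small complex IV subunit Cox8, had 258 and 258 in PPARα-null liver and 880.2 and 271 in wild-type liver on Wy14643 and control, a 3.25-fold higher level on Wy14643 in wild-type liver. Cycs, the somatic cytochrome c that carries electrons between complexes III and IV, had 2231 and 3072 in PPARα-null liver and 8990.3 and 3278 in wild-type liver on Wy14643 and control, which is 2.74-fold higher in wild-type liver. In PPARα-null liver Cycs ran the other way, with a log2 ratio of -0.46, and of -0.34 and -0.03 on its further probe sets. Ndufb3, a subunit of the membrane arm of complex I, had 779 and 865 in PPARα-null liver and 2587 and 1003 in wild-type liver on Wy14643 and control, 2.58-fold higher in wild-type liver. For all 3 genes the wild-type array on Wy14643 gave the highest value, and for Cycs the remaining arrays also differed, with PPARα-null liver on Wy14643 the lowest.

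**Figure D3:**
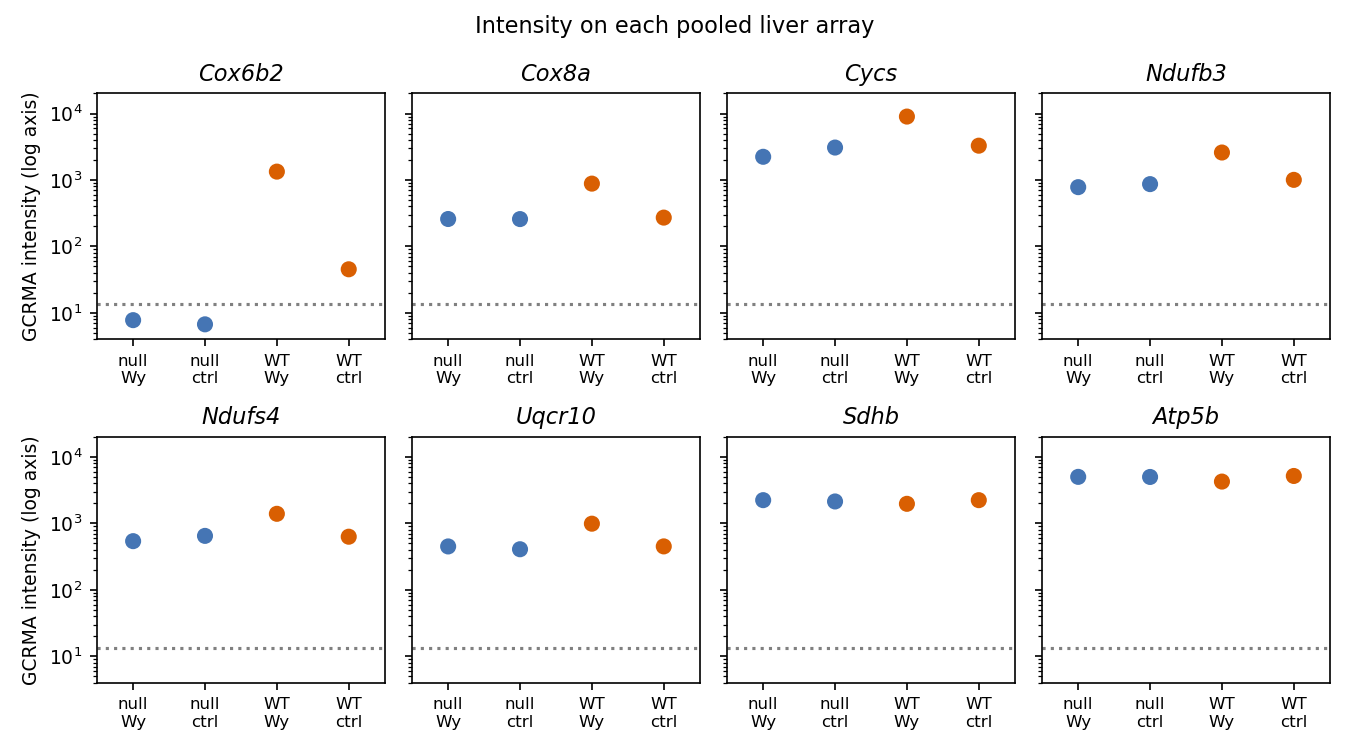
Intensity (GCRMA, log axis) on each of the 4 pooled arrays for the 6 genes at least 2-fold higher on Wy14643 in wild-type liver and for Sdhb and Atp5b, which were not; 1 point is 1 array and the dotted line is the background of 13.4. Cox6b2 is below the line on both PPARα-null arrays and reaches 1334 in wild-type liver on Wy14643.

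The stretch before the start site is shown for the 4 genes with the largest wild-type ratio and for Ndufa8 and Ndufs5, which were also 1.5-fold higher and hold a match to the core of the NRF-1 site, GCGCA and GCGC with 1 base of any kind between them. Ndufa5 met the same conditions, with the match at -190 and -26 from its 2 RefSeq starts, and is not shown. NRF-1 is a transcription factor known for binding many promoters of respiratory chain genes. Each sequence is the 250 bases before the start in RefSeq (GRCm38.p6), read 5′ to 3′ on the gene's strand. Capitals mark CCAAT or its reverse complement ATTGG in the first 4, the match to the NRF-1 core in the last 2, and in Ndufs5 also a match to AGGTCA or its reverse complement. They lie at chr7:4753095-4753344 (minus strand) for Cox6b2, chr19:7217617-7217866 (minus strand) for Cox8a, chr6:50566570-50566819 (minus strand) for Cycs, chr1:58586147-58586396 (plus strand) for Ndufb3, chr2:36049339-36049588 (minus strand) for Ndufa8 and chr4:123718187-123718436 (minus strand) for Ndufs5.
Cox6b2: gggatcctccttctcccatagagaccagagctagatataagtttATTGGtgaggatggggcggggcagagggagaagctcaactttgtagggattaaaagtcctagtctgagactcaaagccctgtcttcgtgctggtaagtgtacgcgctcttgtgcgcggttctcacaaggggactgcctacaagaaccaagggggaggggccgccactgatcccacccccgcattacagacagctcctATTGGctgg
Cox8a: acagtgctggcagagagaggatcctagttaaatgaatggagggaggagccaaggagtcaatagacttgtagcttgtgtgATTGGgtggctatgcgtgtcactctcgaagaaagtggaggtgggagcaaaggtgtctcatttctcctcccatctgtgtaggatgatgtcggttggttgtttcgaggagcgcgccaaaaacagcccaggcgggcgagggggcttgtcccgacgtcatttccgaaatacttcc
Cycs: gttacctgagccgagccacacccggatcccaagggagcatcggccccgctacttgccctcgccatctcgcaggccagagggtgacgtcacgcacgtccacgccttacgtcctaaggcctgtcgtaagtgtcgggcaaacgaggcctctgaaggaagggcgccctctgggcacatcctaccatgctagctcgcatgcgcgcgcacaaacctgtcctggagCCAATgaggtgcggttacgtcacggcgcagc
Ndufb3: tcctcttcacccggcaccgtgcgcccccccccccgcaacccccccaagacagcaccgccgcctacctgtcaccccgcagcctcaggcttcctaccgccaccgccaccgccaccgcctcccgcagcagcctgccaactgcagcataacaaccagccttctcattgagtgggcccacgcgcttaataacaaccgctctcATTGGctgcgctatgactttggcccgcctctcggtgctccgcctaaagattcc
Ndufa8: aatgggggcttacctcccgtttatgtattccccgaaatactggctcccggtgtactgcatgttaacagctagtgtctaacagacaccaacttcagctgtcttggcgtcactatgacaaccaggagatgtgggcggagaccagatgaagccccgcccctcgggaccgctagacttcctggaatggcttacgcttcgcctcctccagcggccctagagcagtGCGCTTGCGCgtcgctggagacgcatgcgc
Ndufs5: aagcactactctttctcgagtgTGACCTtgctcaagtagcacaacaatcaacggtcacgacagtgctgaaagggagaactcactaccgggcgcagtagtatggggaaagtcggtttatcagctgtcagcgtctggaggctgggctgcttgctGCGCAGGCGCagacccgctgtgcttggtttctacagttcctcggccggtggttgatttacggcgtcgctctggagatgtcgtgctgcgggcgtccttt

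A PPAR response element, spelled as 2 copies of AGGTCA in the same direction with 1 base between them, was in 0 of 79 promoter windows of 300 bases, 250 before and 50 after the start, which covered 74 of the 89 genes, and in 0.0396% of all 32851 windows. The single repeat AGGTCA, which the longer element contains, was in 14 of the 79 (17.7%), against 16.3% of all windows. The NRF-1 core was in 18 (22.8%), against 4.60% of all. The ETS site CCGGAA, bound by GABP, was in 30 (38.0%), against 14.9%, and the YY1 core AAGATGGC in 9 (11.4%), against 2.75%. CCAAT, marked above, was no more than common, with 31 windows (39.2%) against 37.4% of all, and TCAAGGTCA, which contains AGGTCA and is bound by oestrogen-related receptors, was in 2 (2.53%) against 0.423%. Both strands were searched. Among the genes 1.5-fold higher in wild-type liver, 5 of 26 windows (19.2%) held the NRF-1 core and 10 (38.5%) the ETS site, and among the genes within 1.5-fold 13 of 50 (26%) and 20 (40%) did. These are matches of letters and not measured binding.

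Complex I takes electrons from NADH through a matrix arm with core subunits that carry its flavin and iron-sulfur clusters. Of the 6 core subunits measured, Ndufs3, Ndufs7 and Ndufv2 were 1.5-fold higher on Wy14643 in wild-type liver, where 15.2% of all genes were. Ndufs3 had 1437 and 1406 in PPARα-null and 2243 and 1351 in wild-type liver on Wy14643 and control. Ndufs7, which holds the last iron-sulfur cluster before coenzyme Q, had 2370.3 and 2035 in PPARα-null and 3338 and 2163 in wild-type liver on Wy14643 and control. In both, as in Ndufv2 (2782 and 2766 in PPARα-null, 4038 and 2622 in wild-type), the wild-type array on Wy14643 gave the highest value. Further probe sets of Ndufv2 gave wild-type log2 ratios of 0.50 and 0.56, within 1.5-fold. Ndufv1, which binds NADH, stayed level in wild-type liver with 1427 and 1380.3 on Wy14643 and control, and had 1099 and 1434 in PPARα-null liver, a log2 ratio of 0.05 in wild-type and -0.38 in PPARα-null. Ndufs1 and Ndufs8, further iron-sulfur subunits, had wild-type log2 ratios of 0.45 and 0.28.

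Of the 26 measured supernumerary subunits of complex I, which surround the core, 9 were 1.5-fold higher in wild-type liver (15.2% of all genes). Ndufs4, needed for a stable NADH-binding module, had 541 and 649.8 in PPARα-null and 1396 and 631 in wild-type liver on Wy14643 and control, 2.21-fold higher in wild-type. Its further 2 probe sets, which are dim, gave log2 ratios of 0.49 and 0.19. Ndufs5, a subunit on the intermembrane space side, had 857 and 1048 in PPARα-null and 1618 and 932 in wild-type liver on Wy14643 and control. A probe set that also matches the pseudogene Ndufs5-ps had 810.1 and 922.6 in PPARα-null and 1018 and 902.1 in wild-type liver on Wy14643 and control, so the size of the Ndufs5 difference depends on the probe set. Ndufb7 differed from the others in that its wild-type control was low: it had 1305 and 1291 in PPARα-null and 1713 and 903 in wild-type liver on Wy14643 and control. On control chow its log2 ratio of PPARα-null over wild-type was 0.52, but 0.16 on its second probe set, so this trait depends on the probe set. Ndufa3, Ndufv3, Ndufa5, Ndufab1 (the mitochondrial acyl carrier protein) and Ndufa8 had wild-type log2 ratios from 0.61 to 0.81.

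Supernumerary subunits of the membrane arm named Ndufb or Ndufc differed among themselves. Of 11 measured, only Ndufb3 and Ndufb7 were 1.5-fold higher in wild-type liver, near the share of all genes (15.2%), and the median was 0.42. Ndufb6 had 2746 and 3328 in PPARα-null and 2795 and 3226 in wild-type liver on Wy14643 and control, slightly lower on Wy14643 in both genotypes, but its second bright probe set gave 0.23 in wild-type liver (2598 and 2210.2 on Wy14643 and control), so the wild-type direction rests on the probe set. The log2 ratio of Ndufb5 was within 0.01 of 0 in wild-type liver, and Ndufa1 and Ndufa10 had -0.05 and -0.03. Ndufb1 was below background on all 4 arrays. Ndufb8, Ndufb10, Ndufa7, Ndufb9, Ndufb11, Ndufa9, Ndufa6, Ndufc2, Ndufa2 and Ndufa12 had wild-type log2 ratios from 0.12 to 0.43. Ndufa13, known also as a regulator of cell death, was the 1 complex I gene with a higher level in PPARα-null than in wild-type liver on Wy14643, with 3352 and 2863 in PPARα-null and 2813 and 2768 in wild-type liver on Wy14643 and control.

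Complex II links the chain to the citric acid cycle by oxidising succinate. Sdha, its flavin subunit, had 1677 and 1779.8 in PPARα-null and 1462 and 1908 in wild-type liver on Wy14643 and control, and Sdhb, its iron-sulfur subunit, had 2241 and 2142 in PPARα-null and 1974 and 2241 in wild-type. Both thus had their lowest value on the wild-type array on Wy14643, with wild-type log2 ratios of -0.38 and -0.18. The second probe set of Sdha gave 0.06, so its direction rests on the probe set. Sdhc, a membrane anchor that binds coenzyme Q, went with the other complexes, with 2357 and 2399 in PPARα-null and 3365 and 2569 in wild-type liver on Wy14643 and control, a wild-type log2 ratio of 0.39. Sdhd, the other anchor, had a wild-type log2 ratio of 0.08, and of -0.14 on a second probe set. Both Sdhaf2 and Sdhaf1, dimly detected assembly factors of this complex, were past 1.5-fold in wild-type liver: Sdhaf2, needed to attach the flavin to Sdha, had 69.7 and 79.3 in PPARα-null and 153 and 78.1 in wild-type liver on Wy14643 and control, and Sdhaf1, needed for the iron-sulfur clusters of Sdhb, had 23.6 and 23.6 in PPARα-null and 36.3 and 24.1 in wild-type liver. A second probe set of Sdhaf2 gave 0.02, and Sdhaf1 was 1.51-fold higher in wild-type liver, just past the limit. Sdhaf4, which also helps to mature Sdha, had a wild-type log2 ratio of -0.10.

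In complex III, which passes electrons from coenzyme Q to cytochrome c, the 9 measured genes all had a wild-type log2 ratio above 0, from 0.18 to 1.14. Uqcr10, a small subunit, had 451 and 409 in PPARα-null and 992 and 451 in wild-type liver on Wy14643 and control, and its further 2 probe sets gave 1.21 and 0.81. Uqcr11, another small subunit, had 1738 and 1627 in PPARα-null and 3418 and 1859 in wild-type. Of the catalytic subunits, the Rieske protein Uqcrfs1 had 2779 and 2418 in PPARα-null and 3939 and 2591 in wild-type liver on Wy14643 and control, and cytochrome c1 (Cyc1) had 1892 and 2322 in PPARα-null and 3952 and 2868 in wild-type. Cyc1 was thus within 1.5-fold for Wy14643 in wild-type liver (0.46) but 2.09-fold lower in PPARα-null than in wild-type liver on Wy14643. The structural core proteins Uqcrc1 and Uqcrc2 had wild-type log2 ratios of 0.39 and 0.18 (0.73 on a second probe set of Uqcrc2), and the small subunits Uqcrq, Uqcrb and Uqcrh had 0.40, 0.30 and 0.30.

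In complex IV, 11 of 12 measured genes had a wild-type log2 ratio above 0. Cox5b, a nuclear subunit near the catalytic core, had 3703 and 4121 in PPARα-null and 6409 and 4025 in wild-type liver on Wy14643 and control, 1.59-fold higher in wild-type. Cox4i1, the widely expressed form of the largest nuclear subunit, had 5223 and 4702 in PPARα-null and 6229 and 4977 in wild-type. Its diet ratio was 0.15 in PPARα-null against 0.32 in wild-type liver on the log2 scale, a small difference between genotypes beside that of Cox5b (-0.15 and 0.67). Cox5a, the partner of Cox4i1 on the matrix side, was the exception with 6613 and 7688 in PPARα-null and 5831 and 7518 in wild-type liver on Wy14643 and control, a wild-type log2 ratio of -0.37. Its further 2 probe sets gave 0.06 and 0.28, so the lower value is not shared by them. Cox6a1, Cox7a2, Cox6c, Ndufa4 (named for complex I but a subunit of complex IV) and Cox7a2l (known for joining complexes III and IV) had wild-type log2 ratios from 0.25 to 0.50. A second bright probe set of Cox6c gave -0.12, so its direction rests on the probe set. Cox7c, also widely expressed, was above background only in PPARα-null liver on control chow, at 15.8, on a dim probe set.

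Isoforms typical of other tissues were below or near background apart from Cox6b2. Cox4i2 of the lung, Cox6a2 and Cox8b of heart and muscle, and Cox8c of the testis were below background on all 4 arrays, with intensities from 5.35 to 10.8. Cox7a1 of heart and muscle had 10.4 and 9.55 in PPARα-null and 21.5 and 13.3 in wild-type liver on Wy14643 and control, so only the wild-type array on Wy14643 was above background, at least 1.61-fold over the others. Markers of skeletal and heart muscle summed to 157 and 101 in PPARα-null and 144 and 162 in wild-type liver on Wy14643 and control, and their part in this value was not tested. The testis form of cytochrome c, Cyct, had 13.4 and 9.09 in PPARα-null and 12.6 and 10.6 in wild-type liver on Wy14643 and control, close to background on every array and just above it in PPARα-null liver on Wy14643, whereas its somatic partner Cycs was far above background on all 4.

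In the ATP synthase, 16 of 17 genes had a wild-type log2 ratio above 0. Of the 17, 3 were 1.5-fold higher on Wy14643, near the share of all genes (15.2%). Atp5d, the delta subunit of the rotating central stalk, had 1258 and 1512 in PPARα-null and 2357 and 1489 in wild-type liver on Wy14643 and control. Atp5o, which ties the catalytic head to the outer stalk, had 2215 and 2258 in PPARα-null and 3532 and 2200.4 in wild-type, and Atp5mpl, a small membrane subunit, had 707 and 744 in PPARα-null and 1403 and 779 in wild-type. For these 3 the wild-type array on Wy14643 again stood above the rest. A second bright probe set of Atp5o gave a wild-type log2 ratio of 0.24, so its call depends on the probe set. The alpha and beta subunits, which form the catalytic head together, did not follow each other. Atp5a1 (alpha) had 2966 and 2964 in PPARα-null and 4715 and 3382 in wild-type liver on Wy14643 and control, and Atp5b (beta) had 5024 and 5007 in PPARα-null and 4267 and 5183 in wild-type, wild-type log2 ratios of 0.48 and -0.28. A second bright probe set of Atp5a1 gave 0.19, so the size of this contrast depends on the probe set. The 3 genes for the c subunit of the rotor ring, Atp5g1, Atp5g2 and Atp5g3, had 0.48, 0.56 and 0.53. The outer stalk subunits Atp5h, Atp5j and Atp5pb had 0.20, 0.04 and 0.00, but a second bright probe set of Atp5pb gave 0.63 and one of Atp5h 0.42, and Atp5c1 (gamma) had 0.42 and Atp5e (epsilon) 0.09. The remaining membrane subunits, Atp5md, Atp5k, Atp5l and Atp5j2, had 0.26 to 0.43.

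Set against each other on Wy14643, PPARα-null liver had lower levels of the respiratory chain genes than wild-type liver. Of 83 genes, 29 were lower by 1.5-fold or more, where 16.8% of all genes were, and 0 were higher, where 17.9% of all genes were. The median log2 ratio of PPARα-null over wild-type was -0.49, against 0.02 over all genes, and 6 of the 83 were above 0. By complex, 10 genes of complex I were lower, 0 of complex II, 4 of complex III, 5 of complex IV and 7 of the ATP synthase, with 2 assembly factors and Cycs. This comparison and that of Wy14643 in wild-type liver share the wild-type array on Wy14643, so their lists are not independent: 20 genes are in both, 80% of the 25 and 69.0% of the 29. Lower in PPARα-null on Wy14643 without being past 1.5-fold for Wy14643 in wild-type liver were Atp5a1, Atp5g1, Atp5g2, Atp5k, Cox6a1, Cyc1, Ndufb2, Ndufc1 and Uqcrc1. Second bright probe sets of Atp5a1 and Cox6a1 gave -0.48 and -0.56 for genotype on Wy14643, within 1.5-fold. Ndufc1 had 1160.2 and 1422 in PPARα-null and 2347 and 1621 in wild-type liver on Wy14643 and control, lower by a log2 ratio of -1.02 in PPARα-null on Wy14643.

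On control chow the genotypes were nearly level. The median log2 ratio of PPARα-null over wild-type was -0.03 over 83 genes, with 0 higher (2.52% of all genes) and 1 lower (2.43% of all genes), the 1 being Cox6b2. Leaving out Cox6b2, the genes that were 1.5-fold higher in wild-type liver on Wy14643 and above background on control chow ran from -0.21 (Ndufb3) to 0.52 (Ndufb7, with 0.16 on its second probe set) in this ratio. The median by complex ran from -0.12 in complex III to 0.03 in complex I. Of the 25 genes higher on Wy14643 in wild-type liver, 23 were above background in PPARα-null liver, and there their log2 ratio of Wy14643 over control ran from -0.46 to 0.22 with a median of -0.02.

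Where a gene had further probe sets, these mostly gave the same direction for Wy14643 in wild-type liver, but not in PPARα-null liver (29 of 64). In wild-type liver 54 of 67 further probe sets, for 45 genes, lay on the same side of 0 as the brightest one for Wy14643 over control, and 23 were past 1.5-fold too. Of the 22 further probe sets of the genes called higher, 19 had the same direction and 12 were past 1.5-fold. Split at a mean intensity of 100, a level chosen after the values were seen, 49 of 56 brighter and 5 of 11 dimmer further probe sets had the same direction. Some genes within 1.5-fold on their brightest probe set were past it on another bright one, among them Cox6b1 (0.80), Ndufa7 (0.78), Atp5k (0.77), Uqcrc2 (0.73) and Atp5pb (0.63). Conversely, some genes called higher fell within 1.5-fold on another bright probe set: Atp5o (0.24), Ndufv2 (0.50 and 0.56) and Cox5b (0.57). Both dim further probe sets of Ndufab1 were slightly below 0 (-0.04 and -0.10), while its bright one gave 0.63. For Cox8a, the second probe set gave 1.83 beside 1.70, and for Cycs the others gave 1.47 and 0.73 beside 1.46.

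**Figure D4:**
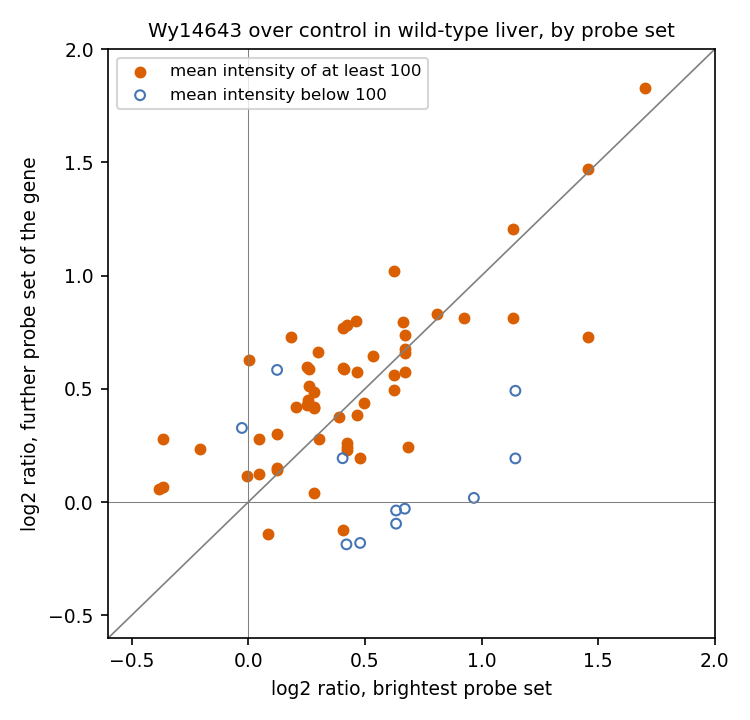
Log2 ratio of Wy14643 over control in wild-type liver for each further probe set of a gene (vertical axis) against that of its brightest probe set (horizontal axis); filled points have a mean intensity of at least 100, open points less, and the diagonal marks equality. Of the filled points 49 of 56 lie on the same side of 0 on both axes, and of the open points 5 of 11.

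Genes that work beside the chain gave a mixed picture. Nuclear genes of the mitochondrial ribosome, which makes the subunits encoded in mitochondrial DNA, had 30 of 74 members past 1.5-fold upwards and 0 downwards on Wy14643 in wild-type liver, where 15.2% and 16.2% of all genes were. Their median log2 ratio was 0.43, close to that of the respiratory chain genes. ND5, a complex I subunit encoded in mitochondrial DNA, had 9459 and 8103 in PPARα-null and 10494 and 8594 in wild-type liver on Wy14643 and control, log2 ratios of 0.22 and 0.29. Its ratio was thus close in both genotypes. Enzymes of the citric acid cycle had 5 of 13 higher and 0 lower, against the same shares of all genes, with a median of 0.55, and among them citrate synthase (Cs) had 999.6 and 927.7 in PPARα-null and 2121 and 1068 in wild-type liver on Wy14643 and control.

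Proteins that feed electrons into the chain from outside complexes I and II went both ways on Wy14643 in wild-type liver. Of 11 measured, 4 were past 1.5-fold upwards (15.2% of all genes) and 4 downwards (16.2% of all genes). Gpd2, the mitochondrial glycerol-3-phosphate dehydrogenase, had 328 and 375 in PPARα-null and 2375 and 446 in wild-type liver on Wy14643 and control. Prodh, proline dehydrogenase, had 1505 and 1339 in PPARα-null and 84.2 and 1175 in wild-type. These were the ends of the group, at log2 ratios of 2.41 and -3.80. Chdh, Etfdh and Etfb, which bring electrons from choline and from fatty acid oxidation, were higher with 1.06, 0.86 and 0.76. In PPARα-null liver the same ratio was 0.17, -0.59 and 0.48. Etfdh and Etfb were also lower in PPARα-null than in wild-type liver on control chow, with -1.19 and -1.09, where Chdh had -0.04. Sqor, Sardh and Dmgdh, which oxidise sulfide, sarcosine and dimethylglycine, were lower on Wy14643 in wild-type liver with -2.10, -1.84 and -0.71. Of 8 genes of coenzyme Q synthesis, 4 were higher (Coq4, Coq3, Coq5 and Coq6, from 0.59 to 1.26) and Coq8a, a regulatory kinase-like protein, was lower with -1.57, against the same shares of all genes.

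Assembly factors were counted by complex, over lists that include the Ndufaf genes, and these small groups were not tested against each other. Of 15 measured for complex IV, 4 were 1.5-fold higher (15.2% of all genes) and 0 lower (16.2% of all genes) in wild-type liver on Wy14643: Cox19, Coa5, Cox17 and Sco2, of which Cox17 and Sco2 carry copper to the enzyme, with log2 ratios from 0.66 to 1.42. Of 4 measured for complex III, Uqcc1, Uqcc3 and Bcs1l were higher, with 0.86, 0.86 and 0.72. Of 9 measured for complex I, of which 5 are Ndufaf genes, 0 were past 1.5-fold in either direction. Among the Ndufaf genes, Ndufaf4 and Ndufaf3 had wild-type log2 ratios of 0.30 and 0.16, and Ndufaf7 and Ndufaf5 had -0.01 and -0.08, Ndufaf5 close to background on every array. Among 15 genes of mitochondrial transcription and biogenesis 1 was past 1.5-fold in each direction, fewer than those shares of all genes: Tfb2m, a mitochondrial transcription factor, was higher, with 209 and 213.9 in PPARα-null and 522 and 231 in wild-type liver on Wy14643 and control, and Ppargc1a, a coactivator known for driving mitochondrial genes, was lower, with 28.7 and 41.2 in PPARα-null and 19.6 and 50.4 in wild-type. Slc25a4, the ADP/ATP carrier typical of heart and muscle, resembled Cox6b2 in form, with 50.9 and 40.4 in PPARα-null and 905.6 and 72.6 in wild-type liver on Wy14643 and control, 12.5-fold higher in wild-type liver. Its partner Slc25a5, the widely expressed carrier, had a wild-type log2 ratio of 0.40.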

How the data were processed

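Livers of 4 groups of male mice were profiled on Affymetrix MOE430A arrays, 1 array of pooled RNA per group. The authors computed 1 intensity per probe set with GCRMA (version 2.20 per the labels), and the deposited intensities are linear and normalized between arrays; no genome build applies. For the wild-type Wy14643 array the description field repeats that of the control, and its title and source name were followed. From the 22690 probe sets, 64 controls were left out. The platform annotation gave 1 gene symbol to 20380 probe sets, several to 691 and none to 1555, and a gene was named only from the first kind; 8 probe sets that name a respiratory chain gene with another gene were kept apart. Each gene is its probe set with the highest mean. Log2 ratios were taken without a pseudocount, in 4 comparisons, over genes with signal above background on either array compared. There is no test: 1 array per group limits the precision, and p-values cannot be formed. Where 1 group was below background, a fold is a bound against the background. The members and lists, markers included, were chosen with earlier results of these data known. Named in full were the genes past 1.5-fold for Wy14643 in wild-type liver or for genotype on Wy14643 (the 30 with the largest ratio), the tissue isoforms with their partners and the catalytic or core subunits; other names were chosen after their values were seen. Promoter windows came from RefSeq (GRCm38.p6). Alternatives were other background rules, pseudocount, scaling (cyclic loess in limma 3.58.1, R 4.3.3), choice of probe set and threshold. The calling code was tested on simulated data. Python 3.11.15, numpy 2.4.6, pandas 2.3.3 and matplotlib 3.10.9 were used.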

Additional observations from a re-analysis of the deposited data

Results flagged for a closer look

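For 13 genes called higher on Wy14643 in wild-type liver, the single pair of PPARα-null arrays gave a log2 ratio of the opposite sign, and this difference between genotypes was not tested, since each group is 1 array. In wild-type liver the log2 ratio was 1.46 for Cycs, 1.37 for Ndufb3, 1.15 for Ndufs4, 0.97 for Sdhaf2, 0.85 for Atp5mpl, 0.80 for Ndufs5, 0.72 for Ndufv3, 0.68 for Atp5o, 0.67 for Cox5b, 0.66 for Atp5d, 0.63 for Ndufab1, 0.61 for Ndufa8 and 0.59 for Sdhaf1. In PPARα-null liver most of the values below 0 were small: they ran from -0.46 for Cycs and -0.33 for Ndufa8 to -0.03 for Atp5o and -0.02 for Ndufv3, with that of Sdhaf1 within 0.01 of 0. Over all probe sets the log2 ratio of Wy14643 over control had an SD of 0.28 in PPARα-null liver and of 0.64 in wild-type liver. Of the 13 genes Cycs, Ndufa8, Ndufs5 (-0.29) and Ndufab1 (-0.28) lay beyond 1 SD below 0 in PPARα-null liver. The sign there was often not shared between probe sets: 29 of 64 further probe sets lay on the same side of 0 as the brightest one. The further probe sets of Cycs gave -0.34 and -0.03 in PPARα-null liver, and those of Ndufab1, both dim, gave -0.09 and 0.50.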

How the results depend on the processing

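Of 298 alternative values for the counts and medians by complex, 291 stayed within the limits set and 7 did not. The limits were 1.5 times a count, or 0.28 on the log2 scale for a median. The 0.28 is the SD over single probe sets in PPARα-null liver, which is wide beside the wild-type medians below. A median within it could thus have changed by much of its size, and the ranges below show the changes found. At a threshold of 2-fold, 6 genes were higher on Wy14643 in wild-type liver, 10 were lower in PPARα-null than wild-type liver on Wy14643 (Cox7a1 by its measured ratio, its bound being 1.61-fold) and 0 were lower on Wy14643 in PPARα-null liver. The 1 gene lower on Wy14643 in PPARα-null liver, Ndufaf1, was also lost, leaving 0, with 32 added to every value, with each array centred on its median and after cyclic loess. The 1 gene lower in PPARα-null on control chow, Cox6b2, was lost, leaving 0, when both arrays had to be above background, by construction. Of the 25 genes higher on Wy14643 in wild-type liver, 2 fell within 1.5-fold with 32 added. With the median of each gene's probe sets, 4 of the 25 fell within 1.5-fold and 1 changed sign. Of the 29 genes lower in PPARα-null on Wy14643, 2 and 4 fell within 1.5-fold in these 2 settings. The direction of Ndufab1 depended on the probe set: for Wy14643 in wild-type liver it was -0.037 as the median of its probe sets and -0.096 without probe sets marked as matching several transcripts, and for PPARα-null over wild-type on Wy14643 it was 0.53 without them. These values come from its dim probe sets. A brighter one that also matches the pseudogene Ndufab1-ps gave 0.72 and -1.07 in the same 2 comparisons. The cause of the dependence was not tested. Across the settings the wild-type median for Wy14643 ran from 0.41 to 0.46 in complex I, 0.39 to 0.46 in complex III, 0.40 to 0.49 in complex IV, 0.35 to 0.48 in the ATP synthase and -0.10 to 0.07 in complex II, whose sign therefore depends on the setting. Scaling shifted no comparison by more than 0.1 on the log2 scale. No paired analysis was possible because each group is 1 array and the labels carry no replicate numbers, and for the same reason no replicate could be left out. Signal over background limits Cox7a1, Cox7c, Ndufaf5 and the genes below background on all arrays.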
